A study of Homo sapiens with 18 samples.

Results

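PC-3 cells were followed over time in suspension after a brief pulse of fluid shear stress: 3 libraries taken 12 h after the shear were set against 3 taken 3 h after it. The libraries were chosen by their labels alone and make up 6 of the 18 libraries of the study. PC-3 is an established human prostate cancer line, and the RNA was that of the cytosolic fraction. In both sheared groups the cells had been detached, suspended at 2000000 cells per mL and pushed from a 5 mL syringe through a 30 gauge needle at 250 µL per second. They were then kept at 1000000 cells per mL in wells coated with poly-HEMA, a polymer to which cells do not attach. The medium of every group was DMEM with insulin, transferrin, selenium and bovine serum albumin. Static cells, held in suspension while the others were sheared, were sampled at 12 h and at 3 h with 3 libraries each, and serve here only to show where the sheared course differs from that of suspension culture without shear. Every library comes from the same line, and no engineered change is labelled, so all results hold for 1 line only. Per the labels, equal replicate numbers within a time mark sheared and static cells drawn from 1 pool, while the pools of different times are independent. The 12 h libraries also carry another batch date than the 3 h libraries. Time after shear and batch date therefore cannot be told apart in the sheared course or in the static course. Both treatments of a time share a batch date, so a constant batch effect drops out of the difference between the 2 courses.

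Immediate early genes are transcription factor and feedback genes that switch on without new protein synthesis after a mechanical, growth factor or stress stimulus, and their short-lived transcripts decay soon after. Cells that pass through the cycle express DNA replication genes around the start of S phase under E2F control, and mitotic genes later, under the DREAM and MuvB complexes acting through short promoter elements. Cells short of oxygen stabilise HIF1, which raises glycolytic enzymes, glucose transporters and genes such as CA9 and VEGFA. Each of these programmes was followed in the suspended cells through a list of known members.

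The 6 sheared libraries held between 18521265 and 25862360 counts. Those of 12 h held 18521265 to 21593071 counts and those of 3 h held 23396884 to 25862360, so the later libraries were the shallower ones. The 100 most abundant genes took 21.0% to 23.6% of the counts at 12 h and 15.7% to 16.8% at 3 h. All 7 markers of PC-3 cells (keratins, EPCAM, CDH1, CD44 and VIM) were present in both groups, and KLK3 and KLK2, which mark luminal prostate epithelium, were at 0 in all 6 libraries. The sum of the 7 luminal markers was 56.4 to 67.1 CPM at 12 h and 60.7 to 144 CPM at 3 h. Of 7 haematopoietic markers, CD68 alone reached a mean of 1 CPM (counts per 1000000 counts of a library). The summed level of those markers was 35.4 to 51.2 CPM at 12 h and 13.5 to 19.6 CPM at 3 h, while HBB was at 0 throughout. The sum of 8 fibroblast and endothelial markers was 66.0 to 76.6 CPM at 12 h and 48.5 to 49.5 CPM at 3 h, with CDH5 and VWF near 0. The difference of the sums was PECAM1's, the 1 called member of 5 tested, at 1.95 ± 0.17 on the log2 scale. COL1A1 was lower, without a call, at 20.6, 25.8 and 23.3 CPM at 12 h and 31.1, 33.8 and 30.6 CPM at 3 h, and the list's median log2 fold change was -0.49. Nuclear-retained RNAs summed to 240 to 272 CPM at 12 h and 137 to 200 CPM at 3 h, and NEAT1 rose by 1.50 ± 0.22. Signal recognition particle RNA (RN7SL genes) took 0.00134% to 0.00395% of counts at 12 h and 0.00977% to 0.0566% at 3 h. The part of these shifts in the results below was not tested. Since the samples are bulk RNA, fewer cells of a kind and less RNA per cell cannot be told apart.

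Of 15088 genes tested with edgeR's quasi-likelihood F test, 3429 (22.7%) rose and 3477 (23.0%) fell between the 3 h and the 12 h sheared groups, at a Benjamini-Hochberg adjusted p below 0.05. After each log2 value, ± gives the standard error of the fit. Changes of at least 2-fold were found for 1241 genes (8.23%) that rose and 1147 (7.60%) that fell. The median log2 fold change of all genes was 0.01. These shares are the background against which every list below is read. In the static cells 3768 genes (25.0%) rose and 3961 (26.3%) fell over the same times, with 8.42% and 6.93% of genes changed by at least 2-fold in each direction. The 2 courses differed for far fewer genes: 360 (2.39%) had a more positive change in sheared than in static cells and 461 (3.06%) a more negative one. With 3 libraries per group an exact permutation test of 1 gene could not go below p = 0.1, so all calls rest on the fit across genes. Unless stated otherwise, the sheared 12 h and 3 h libraries did not overlap for any gene whose library values are given. The 12 largest rises and falls were picked among genes without such overlap, so for those genes its absence was fixed by the choice. The plot of list members by fold change shows where the main programmes lay.

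**Figure D1:**
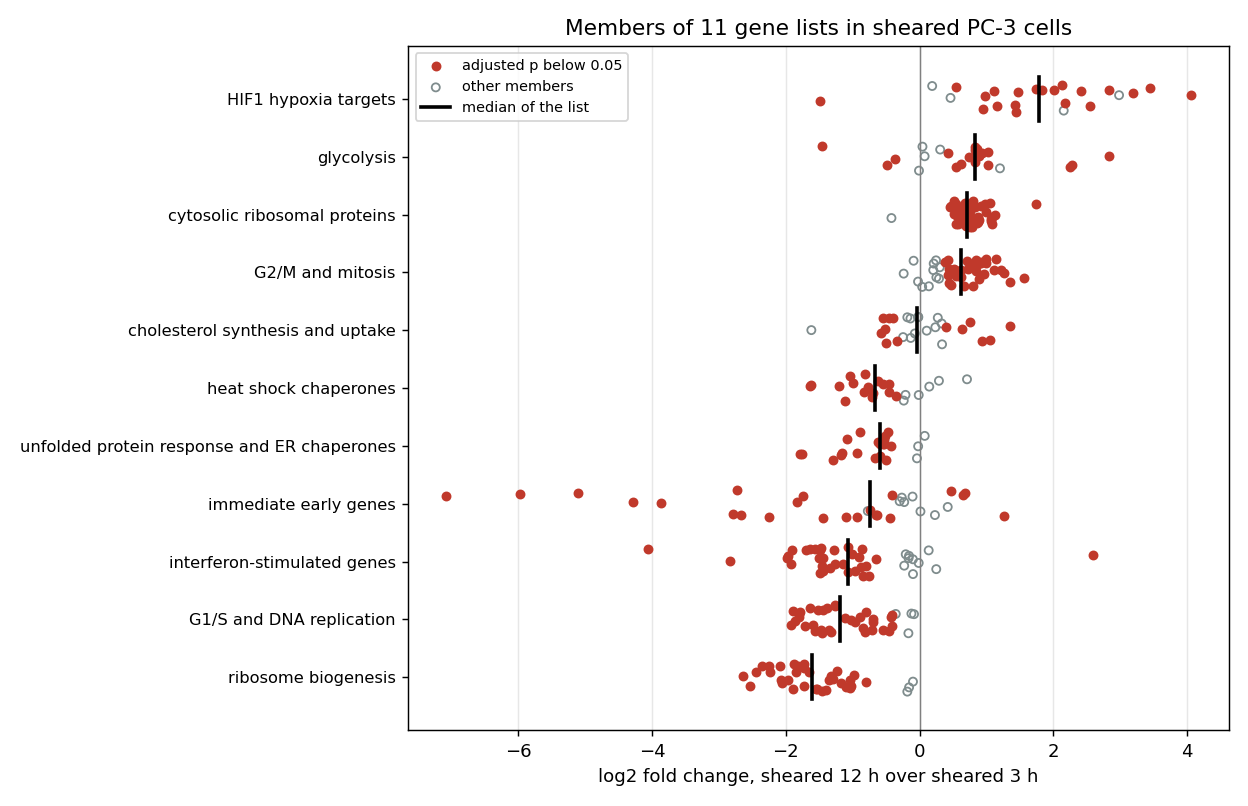
Log2 fold change of sheared 12 h over sheared 3 h cells (horizontal axis) for the members of 11 gene lists (rows). Each point is a gene, filled where the adjusted p was below 0.05, and each black bar is the median of its list, from 1.78 for hypoxia targets at the top to -1.60 for ribosome biogenesis at the bottom.

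Among genes with a mean log2 CPM of at least 3, the 3 largest falls were those of the immediate early genes FOSB, NR4A3 and NR4A2. Of 31 tested members, 19 were lower and 4 higher at 12 h, and the median log2 fold change was -0.74. FOSB, a subunit of the AP-1 transcription factor, had 1.69, 1.40 and 1.06 CPM in sheared 12 h libraries, against 181, 174 and 205 CPM in sheared 3 h libraries. It was low in every 12 h library and far higher in every 3 h library, with a log2 fold change of -7.09 ± 0.19 (adjusted p = 1.45e-15). The 3 NR4A genes, which encode orphan nuclear receptors that act without a known ligand, fell with it. NR4A1 had 25.1, 23.4 and 17.3 CPM in sheared 12 h libraries, against 347, 365 and 249 CPM in sheared 3 h libraries. NR4A2 stood at 5.51, 5.83 and 5.28 CPM in sheared 12 h libraries, against 112, 132 and 78.9 CPM in sheared 3 h libraries. For NR4A3 the values were 0.337, 0.386 and 0.624 CPM in sheared 12 h libraries, against 28.97, 29.3 and 28.7 CPM in sheared 3 h libraries. None of the 3 overlapped between the times, and replicate 3 was clearly the lowest of the 3 h libraries for NR4A1 and NR4A2. Their log2 fold changes were -3.87 ± 0.18 (adjusted p = 3.37e-11) for NR4A1, -4.28 ± 0.19 (adjusted p = 1.24e-11) for NR4A2 and -5.98 ± 0.24 (adjusted p = 2.5e-12) for NR4A3.

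The promoters of FOSB and NR4A3 are shown because these genes fell furthest and because both hold TGACG, the core of the cyclic AMP response element bound by CREB and ATF proteins. Each run is the 250 bases before the annotated start, read 5′ to 3′ on the gene's strand (GRCh38.p14, RefSeq, plus strand), with TGACG or its reverse complement CGTCA in capitals. FOSB lies at chr19:45467746-45467995 and NR4A3 at chr9:99821635-99821884.
FOSB promoter: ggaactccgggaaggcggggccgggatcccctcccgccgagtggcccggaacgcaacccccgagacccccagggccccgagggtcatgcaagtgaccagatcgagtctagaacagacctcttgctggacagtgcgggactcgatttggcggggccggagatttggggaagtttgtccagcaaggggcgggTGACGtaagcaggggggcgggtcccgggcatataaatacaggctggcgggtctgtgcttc
NR4A3 promoter: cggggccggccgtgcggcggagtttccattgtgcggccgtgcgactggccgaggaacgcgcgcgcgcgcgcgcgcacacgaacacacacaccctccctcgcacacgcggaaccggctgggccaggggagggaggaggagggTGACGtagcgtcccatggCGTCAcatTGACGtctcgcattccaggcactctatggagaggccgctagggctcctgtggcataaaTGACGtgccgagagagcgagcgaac
FOSB holds 1 such match and NR4A3 holds 4. Of 32 listed immediate early genes, 24 matched the promoter table, with 30 promoters, and 17 of these (56.7%) hold TGACG on either strand, against 21.2% of all 35116 promoters of the same length. The full palindrome TGACGTCA, which contains that core on both strands, is in 4 of the 30 promoters (13.3%) and in 1.65% of all promoters. Promoters of the mitotic and replication genes listed below also exceed the shares of all promoters, with TGACG in 34% and 34.1%. They hold TGACGTCA in 8.51% and 4.55%.

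Other early factors fell less far. ATF3, a stress-induced repressor of the CREB family, had 43.3, 36.4 and 26.6 CPM in sheared 12 h libraries, against 234, 192 and 250.00 CPM in sheared 3 h libraries, a log2 fold change of -2.67 ± 0.17 (adjusted p = 1.89e-09). FOS stood at 5.40, 4.24 and 3.41 CPM in sheared 12 h libraries, against 13.02, 10.7 and 19.8 CPM in sheared 3 h libraries, and its log2 fold change was -1.74 ± 0.24 (adjusted p = 1.12e-05). EGR1, a zinc finger factor of the growth factor response, was low throughout, with 1.86, 0.916 and 1.34 CPM in sheared 12 h libraries, against 4.15, 5.21 and 10.1 CPM in sheared 3 h libraries, and changed by -2.25 ± 0.35 (adjusted p = 5.21e-05) on the log2 scale. MYC, which drives growth and ribosome production, had 93.1, 94.9 and 118 CPM in sheared 12 h libraries, against 323, 349.8 and 419 CPM in sheared 3 h libraries, with a log2 fold change of -1.83 ± 0.14 (adjusted p = 8.52e-09). All 4 were lower in each 12 h library than in each 3 h library. KLF4 changed less, with 103, 112 and 93.1 CPM in sheared 12 h libraries, against 146, 125 and 139 CPM in sheared 3 h libraries, a log2 fold change of -0.42 ± 0.12 (adjusted p = 0.00896), and its adjusted p was 0.0609 without replicate 1 of the 3 h group and 0.0698 in a fit of all 18 libraries. The 4 members that rose, named after their values were seen, were FOSL1, KLF10, ZFP36 and DUSP1, by 0.47, 0.64, 0.67 and 1.27 on the log2 scale. Without replicate 2 of the 3 h group 2 members rose, and in the fit of all 18 libraries 1 did.

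**Figure D2:**
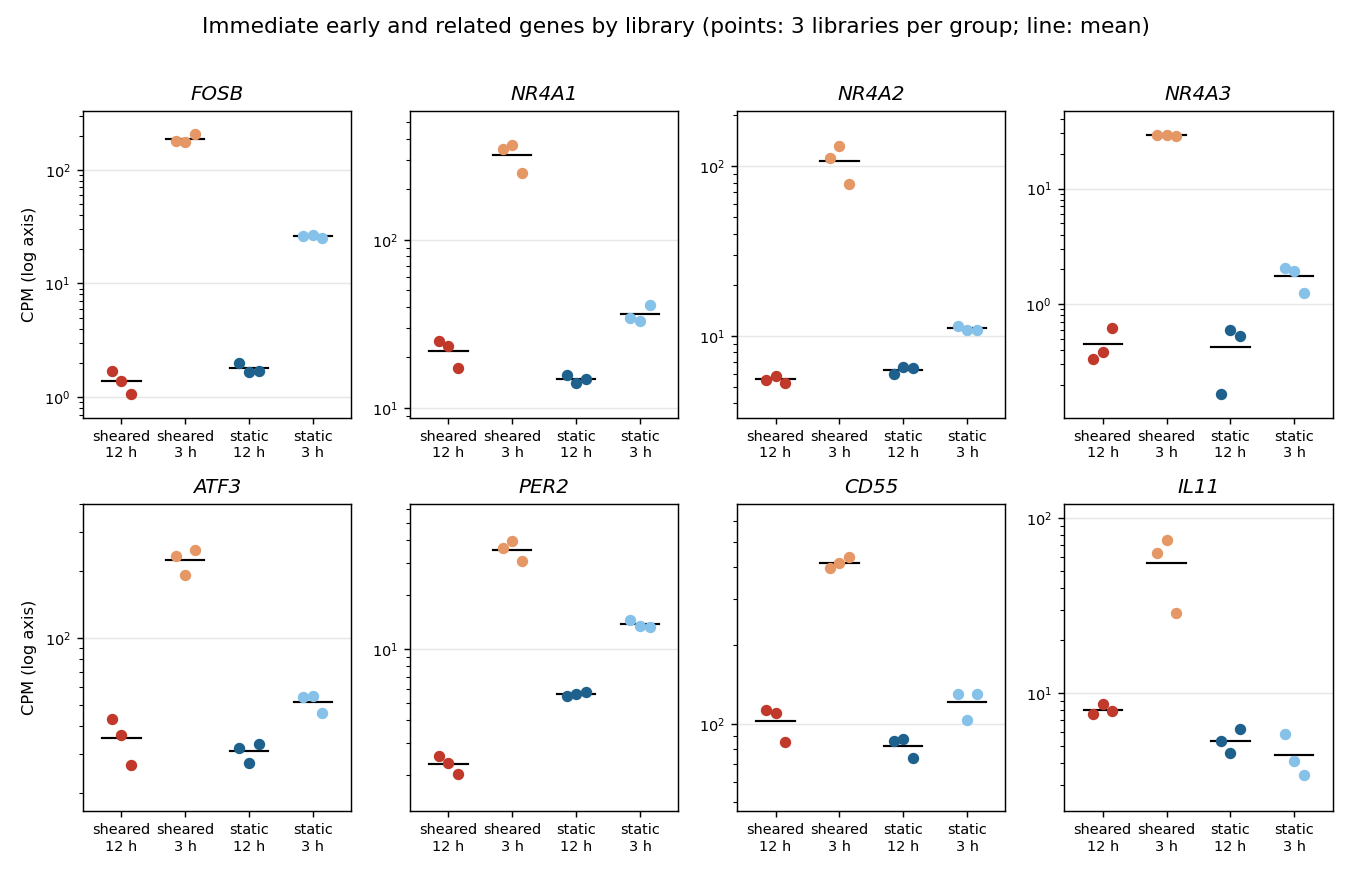
CPM on a log axis for 8 genes in the 4 groups, with 1 point per library and a line at the mean of 3. FOSB, NR4A1, NR4A2, NR4A3, ATF3, PER2, CD55 and IL11 were all lower in each sheared 12 h library than in each sheared 3 h library, and the sheared 3 h points stand above the static 3 h points for each.

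The fall of FOSB, the 3 NR4A genes, ATF3 and FOS was larger in sheared than in static cells. For EGR1 and MYC no difference between the courses was called. EGR1 was called only with no filter on low counts, at -1.16. MYC was called with RLE factors, no filter and DESeq2, at -0.63 each, and without the third 12 h pool, at -0.81. FOSB had 2.000, 1.68 and 1.69 CPM in static 12 h libraries, against 26.4, 26.8 and 24.96 CPM in static 3 h libraries, a log2 fold change of -3.87 ± 0.16, and the difference between the courses was -3.22 ± 0.23 (adjusted p = 2.82e-07). NR4A2 had 5.94, 6.56 and 6.50 CPM in static 12 h libraries, against 11.5, 10.9 and 10.8 CPM in static 3 h libraries, so that it fell in static cells too, by 0.80, and the difference was -3.45 ± 0.20 (adjusted p = 1.86e-08). The differences for NR4A1 and NR4A3 were -2.59 ± 0.21 (adjusted p = 9.47e-06) and -4.01 ± 0.49 (adjusted p = 5.73e-05). At 12 h the sheared and static levels of FOSB, NR4A2 and NR4A3 lay close together, and the gap between the treatments was at 3 h. ATF3 differed by -1.94 ± 0.20 (adjusted p = 3.05e-05) and FOS by -2.01 ± 0.32 (adjusted p = 0.000752). KLF4, JUN and JUND rose in static and fell in sheared cells. JUN changed by 1.21 ± 0.11 in static cells and -0.65 ± 0.16 in sheared cells, a difference of -1.84 ± 0.16 (adjusted p = 2.55e-06). For JUND the difference was -1.57 ± 0.15 (adjusted p = 3.46e-06) and for KLF4 -1.41 ± 0.15 (adjusted p = 1.73e-05). In all 14 of the 31 members had a more negative course in sheared cells, against 3.06% of all genes, and 1 (FOSL1, named after its value was seen) a more positive one. The count of 14 ranged from 10 to 16 when 1 pool was left out. It was 5 in a fit of all 18 libraries, where the adjusted p of the difference was 0.172 for FOSB, 0.273 for NR4A1, 0.0718 for ATF3 and 0.0721 for FOS, while NR4A2, NR4A3, JUN, JUND and KLF4 stayed below 0.05.

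Several signalling genes outside the list followed the same course. PER2, a repressor of the circadian clock, had 2.53, 2.31 and 2.02 CPM in sheared 12 h libraries, against 36.2, 39.6 and 30.6 CPM in sheared 3 h libraries, a log2 fold change of -3.96 ± 0.19 (adjusted p = 2.35e-11). ETS2, a transcription factor downstream of MAP kinases, had 43.7, 38.1 and 39.9 CPM in sheared 12 h libraries, against 340.5, 391 and 301 CPM in sheared 3 h libraries and changed by -3.09 ± 0.14 (adjusted p = 9.74e-12). CD55, the decay-accelerating factor that protects cells from complement, stood at 113, 110.2 and 84.9 CPM in sheared 12 h libraries, against 395, 413 and 435 CPM in sheared 3 h libraries, a log2 fold change of -2.01 ± 0.13 (adjusted p = 1.85e-09). IL11, a cytokine of the gp130 family, had 7.59, 8.63 and 7.92 CPM in sheared 12 h libraries, against 62.9, 74.8 and 28.8 CPM in sheared 3 h libraries. Its 3 h libraries spread widely, with replicate 3 lowest, yet none reached the 12 h range, and the log2 fold change was -2.78 ± 0.31 (adjusted p = 4.16e-05). In static cells IL11 was low at both times, with 5.33, 4.54 and 6.21 CPM in static 12 h libraries, against 5.84, 4.10 and 3.41 CPM in static 3 h libraries. The courses differed by -2.99 ± 0.26 (adjusted p = 2.45e-06) for IL11, -2.67 ± 0.22 (adjusted p = 1.16e-06) for PER2, -1.61 ± 0.13 (adjusted p = 1.16e-06) for ETS2 and -1.47 ± 0.13 (adjusted p = 2.55e-06) for CD55. Among 19 clock genes 8 fell and 6 rose, against 23.0% and 22.7% of all genes. PER1 changed by -1.45 ± 0.16 and NR1D2, a REV-ERB repressor, by -1.20 ± 0.16, while NPAS2, a partner of BMAL1, changed by 1.10 ± 0.13 on the log2 scale, each with no overlap between the times. In static cells 9 clock genes rose and 5 fell. The sheared course was the more negative for 7 of the 19 and the more positive for 1, against 3.06% and 2.39% of all genes. The count of 7 was 4 to 7 when 1 pool was left out.

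Hypoxia targets made the opposite movement. Of 24 listed HIF1 targets, all tested, 19 rose and 1 fell, with a median log2 fold change of 1.78 against 0.01 for all genes, and 16 rose by at least 2-fold. CA9, the carbonic anhydrase that marks hypoxic tumour cells, had 10.7, 16.6 and 11.9 CPM in sheared 12 h libraries, against 1.41, 1.23 and 0.960 CPM in sheared 3 h libraries. The times stood far apart, and the log2 fold change was 3.44 ± 0.25 (adjusted p = 5.51e-09). PFKFB4, which sets the level of the glycolytic activator fructose 2,6-bisphosphate, had 250.2, 281 and 230.1 CPM in sheared 12 h libraries, against 37.5, 29.05 and 39.9 CPM in sheared 3 h libraries, a log2 fold change of 2.84 ± 0.14 (adjusted p = 3.61e-11). BNIP3, a mitophagy receptor, stood at 399.7, 416 and 399 CPM in sheared 12 h libraries, against 110.4, 108 and 84.3 CPM in sheared 3 h libraries, with a change of 2.00 ± 0.13 (adjusted p = 1.53e-09). INSIG2, which retains the sterol sensor in the endoplasmic reticulum, had 164, 182 and 143 CPM in sheared 12 h libraries, against 28.1, 25.8 and 37.5 CPM in sheared 3 h libraries and changed by 2.42 ± 0.15 (adjusted p = 9e-10). None of the 4 overlapped between the times. VEGFA, the angiogenic growth factor, had 152, 147 and 111 CPM in sheared 12 h libraries, against 95.03, 69.7 and 132 CPM in sheared 3 h libraries, which overlapped, and its change of 0.46 ± 0.20 (adjusted p = 0.0777) missed the threshold, although it passed in 6 other fits. The adjusted p was 0.00436 without replicate 3 of the 3 h group, 0.049 without replicate 3 of the 12 h group, 0.0354 with upper-quartile factors, 0.00246 with no filter, 0.0458 in DESeq2 and 0.00373 with a replicate block. STC2, a secreted glycoprotein also induced by ATF4, was the member that fell, with 139, 170.00 and 159.7 CPM in sheared 12 h libraries, against 419, 337 and 563 CPM in sheared 3 h libraries, a change of -1.49 ± 0.16 (adjusted p = 1.07e-06).

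The promoters of CA9 and ANKRD37 are shown because both genes rose with the list and hold ACGTG, the core of the hypoxia response element bound by HIF1. Again each run is the 250 bases before the start on the plus strand (GRCh38.p14, RefSeq), with ACGTG or CACGT in capitals. CA9 is at chr9:35673678-35673927 and ANKRD37 at chr4:185396591-185396840.
CA9 promoter: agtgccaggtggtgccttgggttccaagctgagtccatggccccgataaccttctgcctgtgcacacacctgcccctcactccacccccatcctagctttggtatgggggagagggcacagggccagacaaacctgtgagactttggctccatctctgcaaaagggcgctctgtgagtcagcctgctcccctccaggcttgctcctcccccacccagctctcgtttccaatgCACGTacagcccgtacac
ANKRD37 promoter: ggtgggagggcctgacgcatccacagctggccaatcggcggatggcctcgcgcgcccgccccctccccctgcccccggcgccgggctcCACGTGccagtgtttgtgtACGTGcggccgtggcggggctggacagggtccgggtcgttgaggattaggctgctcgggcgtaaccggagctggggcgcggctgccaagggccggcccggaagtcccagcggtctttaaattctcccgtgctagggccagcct
In CA9 the single match lies close to the annotated start. In ANKRD37 the first block is the palindrome CACGTG, which reads as a match on both strands. Of the 24 listed targets 20 matched the table, with 27 promoters, and 16 of these (59.3%) hold ACGTG on either strand, against 18.5% of all promoters. The share is 33.3% for immediate early, 29.8% for mitotic and 20.5% for replication promoters. ACGTG can overlap TGACG where the letters read TGACGTG.

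Among the 12 largest rises were 2 members of the list, NDRG1 and ANKRD37, and 2 genes outside it that are also known to respond to hypoxia, HILPDA and VLDLR. NDRG1, a growth arrest gene, had 18847, 19406 and 11468 CPM in sheared 12 h libraries, against 1031, 700.3 and 1248 CPM in sheared 3 h libraries, a log2 fold change of 4.06 ± 0.26 (adjusted p = 1.72e-07). HILPDA, which coats lipid droplets, stood at 719.7, 708 and 244 CPM in sheared 12 h libraries, against 29.2, 13.8 and 29.1 CPM in sheared 3 h libraries, a change of 4.53 ± 0.64 (adjusted p = 0.00512) that was not called with a replicate block (adjusted p = 0.0755). ANKRD37 had 56.97, 85.2 and 31.00 CPM in sheared 12 h libraries, against 7.57, 3.41 and 7.88 CPM in sheared 3 h libraries, a change of 3.19 ± 0.51 (adjusted p = 0.00387). VLDLR, a lipoprotein receptor, changed by 3.44 ± 0.27 (adjusted p = 2.26e-08), with 23.8, 20.6 and 12.4 CPM in sheared 12 h libraries, against 2.08, 1.19 and 1.92 CPM in sheared 3 h libraries. In each of the 4 the third 12 h library stood below the other two and above all 3 h libraries. The static course of the hypoxia list was close to the sheared one, with a median log2 fold change of 1.81, and the courses differed for 2 members only. These were STC2, by -0.80 ± 0.13 (adjusted p = 0.00118), and EGLN1, an oxygen-sensing prolyl hydroxylase, by -0.47 ± 0.12 (adjusted p = 0.0282). For EGLN1 the adjusted p was 0.195 without the first 3 h pool, 0.0805 without the second, 0.11 without the third and 0.09 without the first 12 h pool. Without the pool block it was 0.181 for EGLN1 and 0.0543 for STC2, and with all 18 libraries 0.132 and 0.164.

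**Figure D3:**
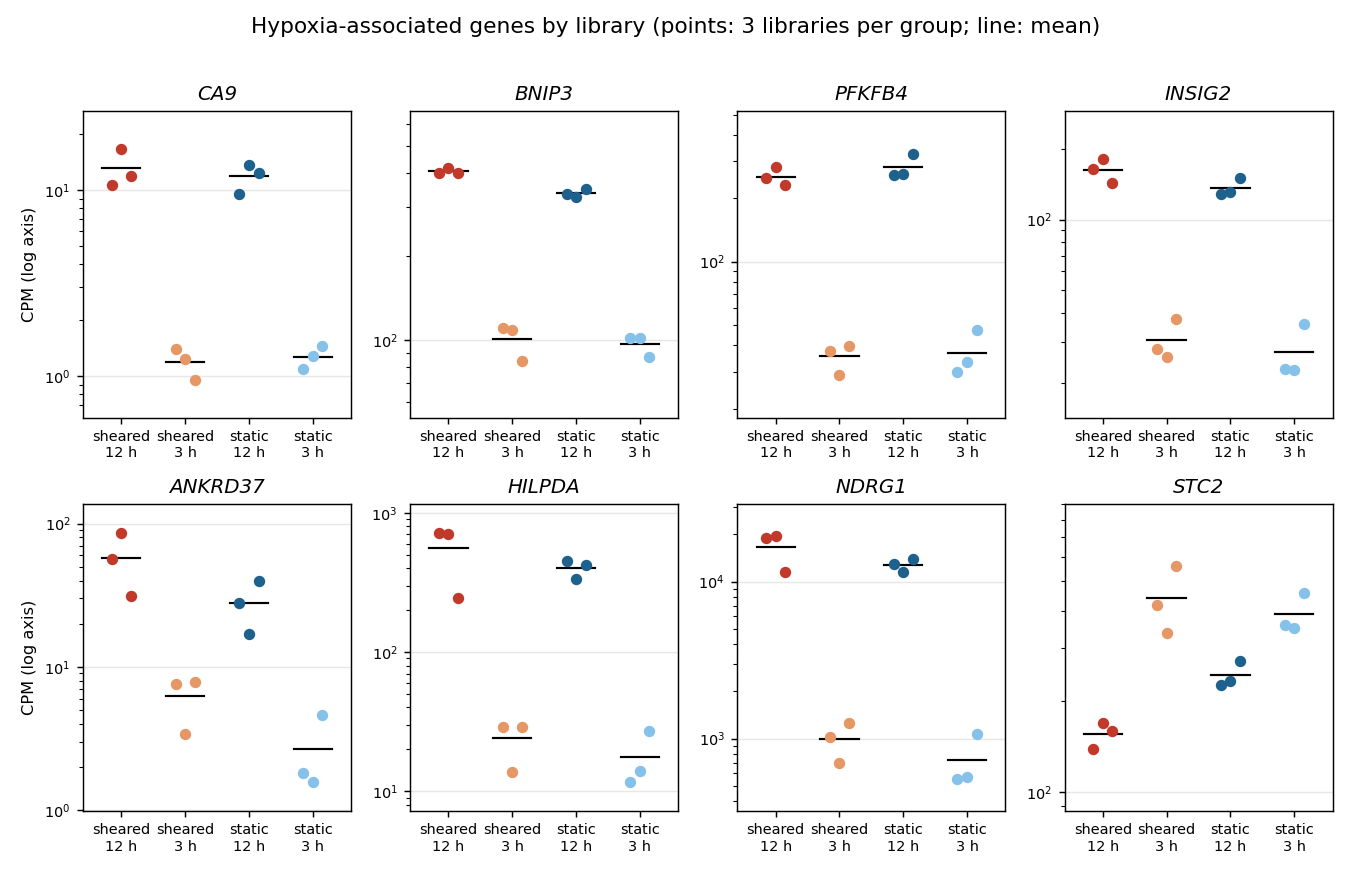
CPM on a log axis for 8 genes associated with hypoxia in the 4 groups, with 1 point per library and a line at the mean of 3. Apart from STC2, each gene was higher in every 12 h library than in every 3 h library of the same treatment, and both 12 h groups stand above both 3 h groups; the third sheared 12 h library is the lowest of its group for ANKRD37, HILPDA and NDRG1.

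Glycolytic genes rose for the most part. The list shares 1 member, PFKFB4, with the hypoxia list. Of 23 tested members 15 rose and 3 fell, with a median log2 fold change of 0.82. ENO2, the neuronal enolase, had 189.9, 211 and 138 CPM in sheared 12 h libraries, against 38.4, 37.5 and 34.96 CPM in sheared 3 h libraries, a change of 2.28 ± 0.15 (adjusted p = 1.44e-09). PGK1, phosphoglycerate kinase, had 1990.5, 2056 and 1679 CPM in sheared 12 h libraries, against 936, 976 and 911 CPM in sheared 3 h libraries, a change of 1.02 ± 0.13 (adjusted p = 3.25e-06). SLC16A1, the lactate transporter MCT1, went the other way, with 60.7, 66.5 and 79.6 CPM in sheared 12 h libraries, against 174, 191 and 204 CPM in sheared 3 h libraries, a change of -1.46 ± 0.13 (adjusted p = 6.16e-08). The other members that fell were PFKM and, named after its value was seen, PFKFB2, by 0.37 and 0.49, and without replicate 2 of the 3 h group 1 member fell in place of 3. Static cells had a median of 0.57 for the list. Of 25 genes of the citric acid cycle and pyruvate entry 8 fell (5 without replicate 2 of the 3 h group) and 4 rose. Over all genes 23.0% fell and 22.7% rose. OGDH and DLAT, subunits of the oxoglutarate and pyruvate dehydrogenase complexes, changed by -0.90 ± 0.12 and -0.79 ± 0.12. The 4 that rose were IDH2, PC, MPC1 and MPC2.

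The cell cycle genes split into 2 groups that moved in opposite directions. Of 38 genes of G1/S and DNA replication 34 fell and none rose, with a median log2 fold change of -1.19. MCM2, a subunit of the replicative helicase, had 28.5, 33.1 and 38.6 CPM in sheared 12 h libraries, against 117, 128 and 101 CPM in sheared 3 h libraries, a change of -1.79 ± 0.14 (adjusted p = 1.69e-08). MCM3 and MCM6, of the same helicase, changed by -1.71 ± 0.13 and -1.86 ± 0.14, with 32.6, 30.4 and 41.6 CPM in sheared 12 h libraries, against 128, 137 and 114 CPM in sheared 3 h libraries for MCM6. The times did not overlap for any of these. RRM2, the small subunit of ribonucleotide reductase, had no call, at -0.17 ± 0.13 (adjusted p = 0.293), and neither had CCNE1, TYMS and PRIM2. In contrast 32 of 43 genes of G2/M and mitosis rose and none fell, with a median of 0.62. CCNF, cyclin F, had 38.1, 42.7 and 32.8 CPM in sheared 12 h libraries, against 13.3, 14.7 and 16.5 CPM in sheared 3 h libraries, a change of 1.35 ± 0.16 (adjusted p = 1.23e-06). CENPA, the histone H3 variant of centromeres, stood at 83.4, 95.6 and 101 CPM in sheared 12 h libraries, against 42.99, 41.1 and 32.1 CPM in sheared 3 h libraries, a change of 1.27 ± 0.14 (adjusted p = 8.6e-07). KIF14 and KIF20A, kinesins of cytokinesis, had 102 ± 21.01 CPM at 12 h and 34.8 ± 0.181 CPM at 3 h, and 100.5 ± 14.02 CPM at 12 h and 43.2 ± 2.73 CPM at 3 h (SD, n = 3 each), and changed by 1.56 ± 0.15 and 1.22 ± 0.14.

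The main regulators of mitotic entry changed less. CDK1, the mitotic kinase, had 295, 275 and 229 CPM in sheared 12 h libraries, against 242, 261 and 224 CPM in sheared 3 h libraries, which overlapped, and its change of 0.14 ± 0.13 (adjusted p = 0.394) missed the threshold. CCNB1, cyclin B1, had 176, 178 and 167 CPM in sheared 12 h libraries, against 127, 145 and 115 CPM in sheared 3 h libraries, a change of 0.43 ± 0.12 (adjusted p = 0.00762). In a fit of all 18 libraries 18 mitotic genes rose in place of 32, and CCNB1 and KIF2C were no longer called, with adjusted p-values of 0.16 and 0.0594. Leaving out 1 library gave 28 to 34 mitotic genes that rose and 30 to 34 replication genes that fell.

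Promoters of 3 mitotic genes are shown because mitotic genes are known to share a pair of short elements: TTTGAA, the cell cycle homology region bound by MuvB complexes, and CCAAT, bound by NF-Y. Both are in capitals, on either strand (TTCAAA and ATTGG on the other strand), in the 250 bases before the start on the plus strand (GRCh38.p14, RefSeq). CCNF is at chr16:2429197-2429446, CENPA at chr2:26785806-26786055 and CDCA8 at chr1:37692266-37692515.
CCNF promoter: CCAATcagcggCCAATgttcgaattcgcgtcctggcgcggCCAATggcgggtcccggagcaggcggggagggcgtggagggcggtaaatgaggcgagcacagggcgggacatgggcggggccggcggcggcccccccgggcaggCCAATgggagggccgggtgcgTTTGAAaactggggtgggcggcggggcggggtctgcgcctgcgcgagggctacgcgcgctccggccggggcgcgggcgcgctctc
CENPA promoter: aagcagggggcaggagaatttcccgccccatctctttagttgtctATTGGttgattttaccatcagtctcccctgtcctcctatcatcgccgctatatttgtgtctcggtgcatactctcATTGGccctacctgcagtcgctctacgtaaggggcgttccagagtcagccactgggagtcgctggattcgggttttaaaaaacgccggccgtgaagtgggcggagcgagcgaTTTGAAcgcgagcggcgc
CDCA8 promoter: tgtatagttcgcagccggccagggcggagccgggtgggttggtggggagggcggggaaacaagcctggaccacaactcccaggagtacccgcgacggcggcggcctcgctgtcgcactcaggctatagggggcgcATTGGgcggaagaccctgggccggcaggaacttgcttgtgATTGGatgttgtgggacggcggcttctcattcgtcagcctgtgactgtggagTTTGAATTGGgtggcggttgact
Each holds TTTGAA once, with 4 matches to CCAAT in CCNF, 2 in CENPA and 3 in CDCA8, where the last CCAAT match shares bases with TTTGAA. Of 43 listed mitotic genes 37 matched the table, with 47 promoters. TTTGAA is in 23 of these (48.9%) and CCAAT in 35 (74.5%), and both are in 20 (42.6%). Of 44 promoters of 33 matched replication genes TTTGAA is in 1 (2.27%) and CCAAT in 24 (54.5%). Over all promoters the shares are 13.3% for TTTGAA, 32% for CCAAT and 4.69% for both.

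In the mitotic genes the sheared course departed from the static one. Static cells had a median log2 fold change of -0.18 for the list, and in 35 of 43 members the sheared course was the more positive, with none the other way, against 2.39% of all genes. CDCA8, borealin of the chromosomal passenger complex, had 79.7, 75.6 and 71.3 CPM in sheared 12 h libraries, against 49.8, 49.6 and 44.3 CPM in sheared 3 h libraries. In static cells it had 58.6, 53.5 and 59.3 CPM in static 12 h libraries, against 81.5, 90.6 and 80.9 CPM in static 3 h libraries. It rose in sheared cells, with a log2 fold change of 0.66 ± 0.13, and fell in static cells, with -0.56 ± 0.10, a difference of 1.22 ± 0.13 (adjusted p = 1.76e-05). CCNF had 23.8, 24.4 and 27.7 CPM in static 12 h libraries, against 28.5, 28.8 and 31.8 CPM in static 3 h libraries, and the difference was 1.58 ± 0.17 (adjusted p = 1.91e-05). For AURKA, a kinase of the spindle poles, the difference was 1.05 ± 0.13 (adjusted p = 4.36e-05), for KIF2C, a microtubule depolymerase, 1.10 ± 0.14 (adjusted p = 8.13e-05), and for CENPA and KIF20A 1.07 ± 0.14 and 0.95 ± 0.13. CDK1 and CCNB1 differed by 0.75 ± 0.12 (adjusted p = 0.000964) and 0.61 ± 0.12 (adjusted p = 0.00362). The sheared 3 h group had the lowest mean of the 4 groups for each of these genes except CDK1, which was lowest in static 12 h cells. The count of 35 was 26 to 38 when 1 pool was left out, 22 without the pool block and 11 with all 18 libraries, where the adjusted p was 0.122 for CDK1 and 0.0613 for CCNB1. All 38 replication genes fell in static cells, with a median of -1.45 against -1.19 in sheared cells. Of these genes 7 had the more positive course in sheared cells and none the more negative. The count of 7 was 12 without the third 12 h pool, and 3, 2 and 3 without the first, the second and the third 3 h pool. It was 4 without the pool block and 0 with all 18 libraries.

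**Figure D4:**
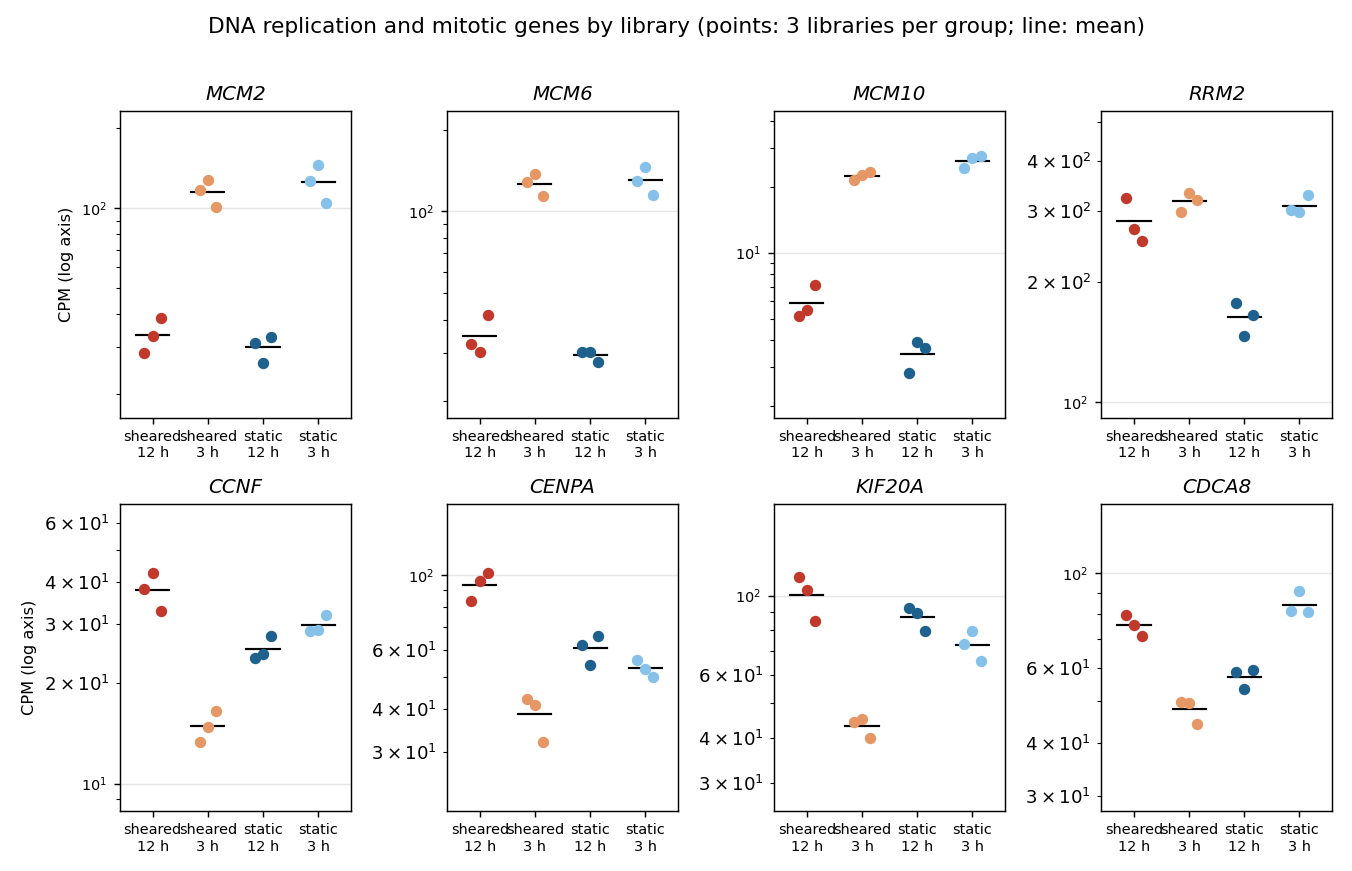
CPM on a log axis for 8 cell cycle genes in the 4 groups, with 1 point per library and a line at the mean of 3. MCM2, MCM6 and MCM10 were lower at 12 h in both treatments, while CCNF, CENPA, KIF20A and CDCA8 were higher at 12 h in sheared cells, whose 3 h points lie below those of static cells.

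Inhibitors of the cycle moved both ways. CDKN1C and CDKN2D, inhibitors of cyclin-dependent kinases, had 33.3 ± 5.45 CPM at 12 h and 9.78 ± 1.95 CPM at 3 h, and 58.5 ± 11.2 CPM at 12 h and 21.7 ± 1.87 CPM at 3 h (SD, n = 3 each), changes of 1.77 ± 0.18 (adjusted p = 2.91e-07) and 1.43 ± 0.16 (adjusted p = 6.91e-07). CDKN1A, the p21 inhibitor, had 44.8, 39.97 and 65.6 CPM in sheared 12 h libraries, against 182, 189 and 159.96 CPM in sheared 3 h libraries, a change of -1.82 ± 0.16 (adjusted p = 1.06e-07). CCND1, cyclin D1, had 291, 284 and 440.4 CPM in sheared 12 h libraries, against 791, 817 and 918 CPM in sheared 3 h libraries, a change of -1.31 ± 0.16 (adjusted p = 2.29e-06). The third 12 h library stood above the other two. Of 12 tested genes in this list 4 rose (CDKN1B, CDKN1C, CDKN2C and CDKN2D) and 3 fell (CDKN1A, CCND1 and RBL1). The shares of all genes were 22.7% and 23.0%. Without replicate 3 of the 12 h group 7 rose.

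**Figure D5:**
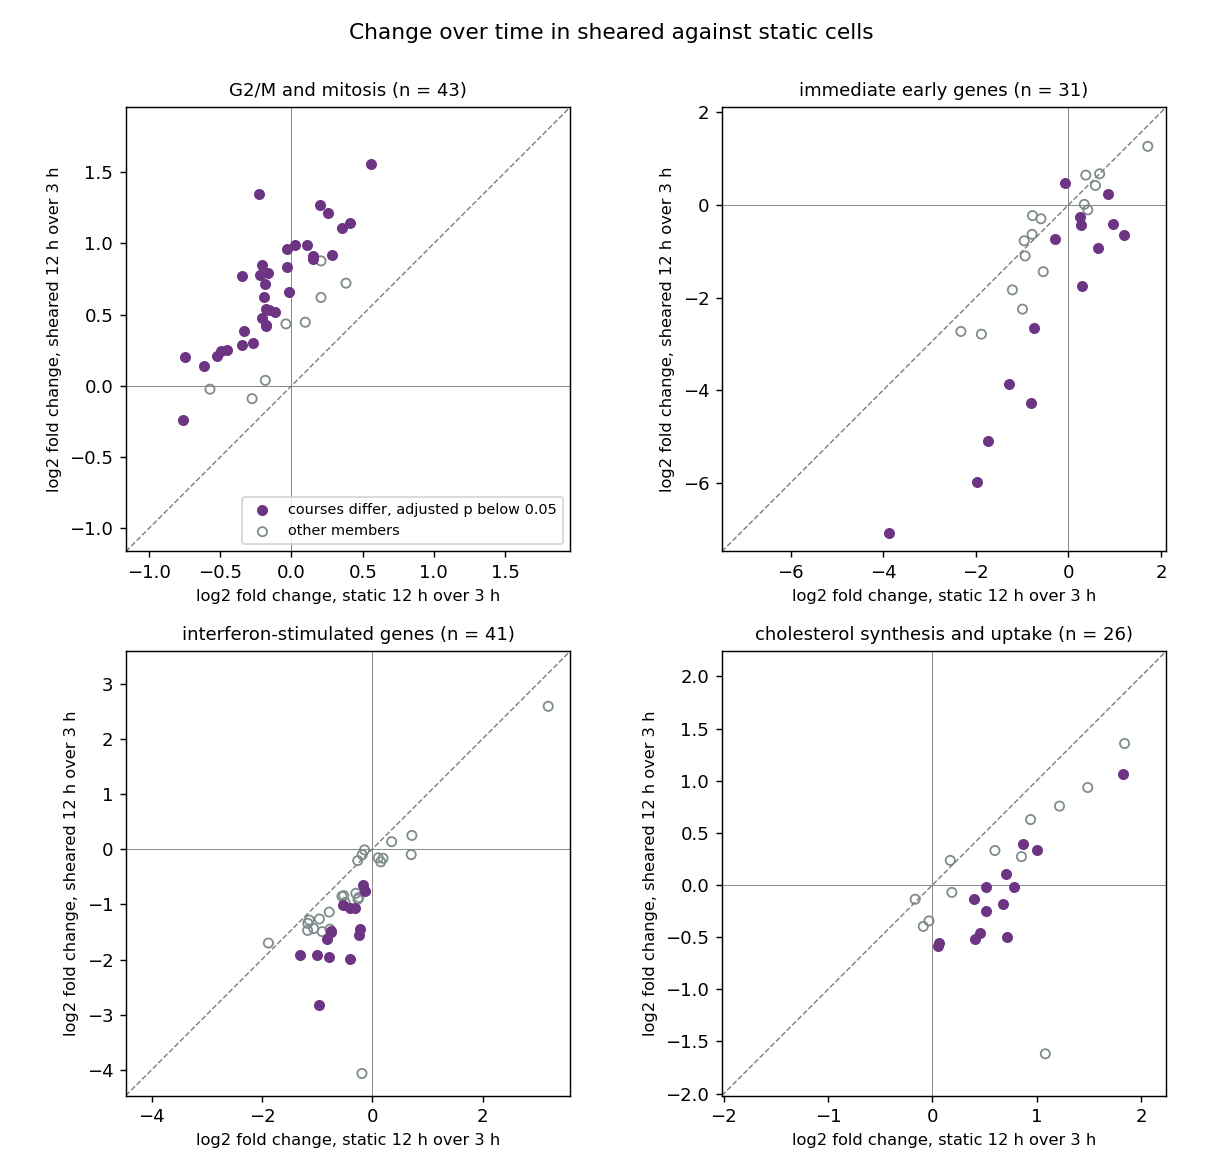
Log2 fold change of 12 h over 3 h in sheared cells (vertical axis) against that in static cells (horizontal axis) for 4 gene lists. Points on the dashed line changed alike, and filled points are members whose courses differed at an adjusted p below 0.05; the G2/M genes lie above the line, and most of the filled points of the other 3 lists lie below it.

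Ribosome genes also split by role. Of 57 cytosolic ribosomal protein genes 56 rose and none fell, with a median log2 fold change of 0.71, and their share of all counts was 7.19% to 7.88% at 12 h and 4.53% to 5.24% at 3 h. RPLP2, of the acidic stalk of the large subunit, had 1191, 1233 and 1045 CPM in sheared 12 h libraries, against 586, 525 and 481 CPM in sheared 3 h libraries, a change of 1.12 ± 0.13 (adjusted p = 1.19e-06). RPS29, of the small subunit, stood at 360.4, 459 and 336 CPM in sheared 12 h libraries, against 131, 108 and 109 CPM in sheared 3 h libraries, a change of 1.73 ± 0.14 (adjusted p = 1.75e-08). RPLP1 and RPS12 changed by 1.08 ± 0.13 and 1.08 ± 0.13, and RPS10 was the member without a call. Several of these genes have near-identical processed pseudogenes, so their counts depend on how shared reads were assigned. In the opposite direction, 33 of 36 ribosome biogenesis factors fell and none rose, with a median of -1.60. RRP12, which exports ribosomal subunits, had 10.9, 13.6 and 13.96 CPM in sheared 12 h libraries, against 60.7, 68.8 and 68.2 CPM in sheared 3 h libraries, a change of -2.36 ± 0.15 (adjusted p = 1.15e-09). DDX21, a nucleolar helicase, had 121, 94.8 and 132 CPM in sheared 12 h libraries, against 499, 581 and 581 CPM in sheared 3 h libraries, a change of -2.26 ± 0.14 (adjusted p = 9e-10). NOLC1 and UTP20, nucleolar factors of rRNA processing, changed by -2.24 ± 0.16 and -2.06 ± 0.15. The 3 factors without a call were FBL, NPM1 and, named after its value was seen, NHP2. The static course was -1.61 in the median for biogenesis and 0.31 for ribosomal proteins. The courses differed for 4 ribosomal proteins (RPSA, RPS13, RPL34 and RPL37), a count that was 54 without the third 12 h pool, 2 without the second, and 0 without the first 12 h pool or any 1 of the 3 h pools. It was also 0 without the pool block, 2 with RLE factors, 16 in DESeq2 and 39 with no filter on low counts.

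Interferon-stimulated genes fell. Of 41 tested members 31 were lower and 1 higher, with a median log2 fold change of -1.07. MX1, an antiviral GTPase, had 40.9, 40.5 and 32.1 CPM in sheared 12 h libraries, against 135, 146 and 145 CPM in sheared 3 h libraries, a change of -1.91 ± 0.13 (adjusted p = 2.62e-09). OAS2, which senses double-stranded RNA, had 17.4, 12.9 and 13.3 CPM in sheared 12 h libraries, against 33.3, 37.8 and 47.8 CPM in sheared 3 h libraries, a change of -1.45 ± 0.17 (adjusted p = 1.6e-06). CMPK2, a mitochondrial nucleotide kinase, had 6.47, 5.30 and 7.05 CPM in sheared 12 h libraries, against 21.8, 23.96 and 27.6 CPM in sheared 3 h libraries, a change of -1.96 ± 0.18 (adjusted p = 6.29e-08). IRF1, a transcription factor of the interferon response, changed by -1.70 ± 0.16 (adjusted p = 1.38e-07). ISG20, an exonuclease, was the member that rose, with 76.3, 97.1 and 71.6 CPM in sheared 12 h libraries, against 14.6, 12.9 and 13.1 CPM in sheared 3 h libraries, a change of 2.59 ± 0.16 (adjusted p = 4.44e-10). In static cells the median was -0.41, and 15 members fell further in sheared than in static cells, a count of 8, 7 and 9 without the first, the second and the third 3 h pool, 8 without the pool block and 5 with all 18 libraries. The difference was -1.23 ± 0.17 (adjusted p = 0.000215) for OAS2, -1.20 ± 0.19 (adjusted p = 0.000624) for CMPK2 and -0.92 ± 0.13 (adjusted p = 0.000272) for MX1. Static OAS2 had 37.9, 41.5 and 30.5 CPM in static 12 h libraries, against 39.8, 38.6 and 48.9 CPM in static 3 h libraries, values that overlapped.

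Cytokine and NF-kB target genes moved both ways, with 10 of 25 lower and 8 higher, against 23.0% and 22.7% of all genes. By at least 2-fold 7 fell and 2 rose, and the largest rise was 1.15. In static cells 8 fell and 5 rose. The sheared course was the more negative for 6 members and the more positive for none, against 3.06% and 2.39% of all genes. The count of 6 was 3 to 5 when 1 pool was left out. The members described here are ones that fell. CXCL2, a neutrophil chemokine, had 10.1, 6.51 and 4.94 CPM in sheared 12 h libraries, against 37.5, 36.9 and 20.8 CPM in sheared 3 h libraries, a change of -2.15 ± 0.28 (adjusted p = 4.29e-05). IL6 had 13.9, 9.11 and 9.31 CPM in sheared 12 h libraries, against 25.8, 31.7 and 20.2 CPM in sheared 3 h libraries, a change of -1.27 ± 0.20 (adjusted p = 4.2e-05). NFKB1, the p105 subunit, changed by -1.18 ± 0.14 (adjusted p = 2.09e-06). The third 3 h library was the lowest of its group for CXCL2, IL6 and IL11. The count that rose was 4 without replicate 1 or 2 of the 12 h group, 5 without replicate 1 and 4 without replicate 2 of the 3 h group, and in a fit of all 18 libraries 6 fell and 1 rose.

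Stress programmes of the endoplasmic reticulum and cytosol were lower at 12 h. Of 22 genes of the unfolded protein response 19 fell and none rose, with a median log2 fold change of -0.59. HSPA5, the chaperone BiP, had 249, 248 and 214 CPM in sheared 12 h libraries, against 765, 861 and 773 CPM in sheared 3 h libraries, a change of -1.75 ± 0.13 (adjusted p = 5.02e-09). DNAJB9, its cochaperone, had 11.4, 8.39 and 12.04 CPM in sheared 12 h libraries, against 32.9, 39.9 and 36.5 CPM in sheared 3 h libraries, a change of -1.78 ± 0.17 (adjusted p = 1.07e-07). HYOU1 and HERPUD1 changed by -1.30 ± 0.12 and -1.17 ± 0.13. Of 22 heat shock chaperones 16 fell and none rose. HSPA9, the mitochondrial HSP70, had 205, 198 and 199 CPM in sheared 12 h libraries, against 456, 515 and 421 CPM in sheared 3 h libraries, a change of -1.21 ± 0.12 (adjusted p = 2.73e-07). DNAJA1, an HSP40, changed by -1.12 ± 0.13 (adjusted p = 1.81e-06). HSPA1A and HSPA1B are near-identical copies whose reads cannot be assigned with certainty. They had changes of -1.63 ± 0.19 and -1.64 ± 0.19, and the third 3 h library was above the other two, at 802 CPM for HSPA1A against 488 and 436 CPM. Of 26 ATF4 targets 15 fell and 4 (TRIB3, DDIT4, VLDLR and NUPR1) rose. SLC7A1, an arginine transporter, had 49.6, 62.05 and 62.8 CPM in sheared 12 h libraries, against 176, 189 and 188 CPM in sheared 3 h libraries, a change of -1.66 ± 0.13 (adjusted p = 1.04e-08). CHAC1, which breaks down glutathione, had 4.84, 4.72 and 6.05 CPM in sheared 12 h libraries, against 20.1, 21.3 and 18.02 CPM in sheared 3 h libraries, a change of -1.93 ± 0.18 (adjusted p = 1.01e-07). In static cells the medians of these 3 lists had the same sign. There 17 unfolded protein response genes fell and 2 rose (median -0.48), and 15 heat shock chaperones fell and 2 rose (median -0.61). Of the ATF4 targets 12 fell and 4 rose in static cells, with a median of -0.25 against -0.47 in sheared cells. The sheared course was the more negative for 4 unfolded protein response genes, 3 heat shock chaperones and 4 ATF4 targets, against 3.06% of all genes. It was the more positive for 1 heat shock chaperone and for no member of the other lists, against 2.39%. Leaving out 1 pool gave 2 to 5, 1 to 3 and 3 to 9 more negative members.

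Iron and zinc genes gave a mixed picture. FTL and FTH1, the ferritin chains that store iron, had 1181 ± 190.2 CPM at 12 h and 404 ± 55.1 CPM at 3 h, and 15978 ± 649 CPM at 12 h and 7455 ± 643 CPM at 3 h (SD, n = 3 each). They rose by 1.55 ± 0.14 and 1.10 ± 0.13 on the log2 scale. HMOX1, heme oxygenase, had 16.6, 21.7 and 18.9 CPM in sheared 12 h libraries, against 10.3, 11.2 and 9.14 CPM in sheared 3 h libraries, a change of 0.90 ± 0.17 (adjusted p = 0.000245). AKR1C3, an aldo-keto reductase with near-identical paralogs, had 43.5, 36.9 and 40.9 CPM in sheared 12 h libraries, against 13.6, 13.1 and 14.6 CPM in sheared 3 h libraries, a change of 1.55 ± 0.15 (adjusted p = 1.12e-07). GCLM, of glutathione synthesis, fell by 0.94 ± 0.13. Of 26 NRF2 targets 7 rose and 9 fell in all, against 22.7% and 23.0% of all genes. SLC30A1, a zinc exporter, had 3.09, 3.28 and 5.85 CPM in sheared 12 h libraries, against 21.96, 21.9 and 69.6 CPM in sheared 3 h libraries, a change of -3.21 ± 0.67 (adjusted p = 0.016). The third 3 h library stood far above the other two, and the call was lost when replicate 1 (adjusted p = 0.0775) or replicate 3 (adjusted p = 0.0538) of the 12 h group was left out. MT2A, a metallothionein with near-identical family members, had 209, 130.3 and 129.99 CPM in sheared 12 h libraries, against 94.03, 94.3 and 54.2 CPM in sheared 3 h libraries, a change of 0.95 ± 0.24 (adjusted p = 0.00839) that was not called in a fit of all 18 libraries (adjusted p = 0.0548).

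Cholesterol synthesis and uptake genes showed no common direction in sheared cells, with 6 of 26 higher and 7 lower and a median of -0.05. Both counts were near the 22.7% and 23.0% of all genes. INSIG1, the sterol-regulated retention protein, had 365, 288 and 214 CPM in sheared 12 h libraries, against 159, 150.2 and 106 CPM in sheared 3 h libraries, a change of 1.06 ± 0.19 (adjusted p = 0.000414). MSMO1, a sterol oxidase, had 167, 143 and 87.05 CPM in sheared 12 h libraries, against 55.5, 55.6 and 44.1 CPM in sheared 3 h libraries, a change of 1.36 ± 0.20 (adjusted p = 9.5e-05). HMGCS1, the synthase that makes HMG-CoA, had 99.3, 87.1 and 87.8 CPM in sheared 12 h libraries, against 118, 138 and 131 CPM in sheared 3 h libraries, a change of -0.50 ± 0.12 (adjusted p = 0.00249). SQLE, squalene epoxidase, had 142, 131 and 108 CPM in sheared 12 h libraries, against 149, 155 and 129 CPM in sheared 3 h libraries, which overlapped, at -0.18 ± 0.13 (adjusted p = 0.264). Static cells had a median of 0.64 for the list, and HMGCS1 rose there by 0.72 ± 0.11. In 14 of 26 members the sheared course was the more negative, a count of 8 without the first 12 h pool, 8, 6 and 6 without the first, the second and the third 3 h pool, 6 without the pool block and 4 with all 18 libraries. The difference was -1.22 ± 0.15 (adjusted p = 4.92e-05) for HMGCS1, -0.92 ± 0.13 (adjusted p = 0.000186) for CYP51A1, a sterol demethylase, and -0.87 ± 0.12 (adjusted p = 0.000243) for SQLE. In a fit of all 18 libraries the falls of HMGCS1 and CYP51A1 in sheared cells were no longer called, with adjusted p-values of 0.195 and 0.0538, and 2 members fell in place of 7. Of 12 LXR targets 4 (ABCA1, ABCG1, MYLIP and LPCAT3) fell and 2 (NR1H3 and NPC2) rose, against 23.0% and 22.7% of all genes, with a median of -0.27. The rises numbered 1 without replicate 2 of the 12 h group or any 1 of the 3 h replicates. ABCA1, the cholesterol exporter, stood at 7.14, 8.73 and 4.56 CPM in sheared 12 h libraries, against 16.9, 21.3 and 23.8 CPM in sheared 3 h libraries, a change of -1.60 ± 0.21 (adjusted p = 8.04e-06). SREBF1, the fatty acid regulator, had 97.3, 112 and 115 CPM in sheared 12 h libraries, against 325, 304 and 261 CPM in sheared 3 h libraries, a change of -1.46 ± 0.13 (adjusted p = 5.26e-08).

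Targets of the mechanosensitive coactivators YAP and TAZ fell in 8 of 22 cases and rose in 3, with a median of -0.27. Over all genes 23.0% fell and 22.7% rose. In static cells 12 of the 22 fell and 3 rose, with a median of -0.46. The sheared course was the more positive for 2 members and the more negative for 1. Leaving out 1 pool gave 1 to 4 and 0 to 1 such members. CCN2, connective tissue growth factor, had 6.75, 4.97 and 3.12 CPM in sheared 12 h libraries, against 30.2, 25.7 and 46.3 CPM in sheared 3 h libraries, a change of -2.79 ± 0.27 (adjusted p = 2.72e-06). ANKRD1 had 1.12, 0.530 and 1.30 CPM in sheared 12 h libraries, against 4.90, 5.99 and 10.1 CPM in sheared 3 h libraries, a change of -2.83 ± 0.34 (adjusted p = 3.26e-06). TGFB2, a ligand of the TGF-beta receptors, had 108, 104 and 87.8 CPM in sheared 12 h libraries, against 258, 284 and 249 CPM in sheared 3 h libraries, a change of -1.40 ± 0.13 (adjusted p = 6.16e-08). CCN1, a matricellular partner of CCN2, had 119.8, 125 and 87.00 CPM in sheared 12 h libraries, against 123, 110.3 and 156 CPM in sheared 3 h libraries, which overlapped, at -0.23 ± 0.15 (adjusted p = 0.233). The 3 members that rose, named after their values were seen, were F3, PTPN14 and IGFBP3, and 1 rose without replicate 1 or 2 of the 3 h group. Among targets of serum response factor and actin genes 7 of 26 fell (4 with all 18 libraries) and MYL12A and TPM4 rose. The rises numbered 6 with upper-quartile factors, and 1 with total counts and without replicate 2 of the 12 h group or replicate 1 or 2 of the 3 h group. The median was -0.07, and the falls were near the 23.0% of all genes. SRF itself changed by -1.10 ± 0.16 (adjusted p = 2.11e-05). ERRFI1, a feedback inhibitor of the EGF receptor, had 1221, 1109 and 766 CPM in sheared 12 h libraries, against 352, 303 and 348 CPM in sheared 3 h libraries, a change of 1.63 ± 0.16 (adjusted p = 1.88e-07). DUSP6, a phosphatase of ERK, and SPRED3, an inhibitor of the same pathway, rose by 0.76 ± 0.15 and 1.52 ± 0.19. They are 2 of 7 genes that rose among 20 MAP kinase feedback genes, of which DUSP5, DUSP14, DUSP16 and SPRY1 fell (1 without replicate 3 of the 3 h group, 2 with upper-quartile factors and 7 with total counts). Over all genes 22.7% rose and 23.0% fell.

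Adhesion and lineage genes changed one by one. ITGB4, the laminin receptor subunit of hemidesmosomes, had 1462, 1811 and 829.9 CPM in sheared 12 h libraries, against 289.8, 262 and 259 CPM in sheared 3 h libraries, a change of 2.34 ± 0.23 (adjusted p = 1.03e-05). ITGA5, of the fibronectin receptor, had 217, 236 and 132 CPM in sheared 12 h libraries, against 58.6, 46.03 and 62.5 CPM in sheared 3 h libraries, a change of 1.81 ± 0.19 (adjusted p = 4.77e-06). For both genes the third 12 h library was the lowest of its group and still above all 3 h libraries. Of 17 integrins ITGA2, ITGA5, ITGB4, ITGB6 and ITGB8 rose and ITGA3, ITGA4, ITGB2 and ITGB5 fell, and 2 fell without replicate 2 of either group. KRT19 rose and KRT7 fell, both keratins of simple epithelia, with changes of 1.19 ± 0.15 (adjusted p = 2.56e-06) and -0.90 ± 0.13 (adjusted p = 1.13e-05). CLDN1, of tight junctions, had 13.1, 13.7 and 23.6 CPM in sheared 12 h libraries, against 52.7, 54.5 and 73.03 CPM in sheared 3 h libraries, a change of -1.83 ± 0.21 (adjusted p = 4.12e-06). Of 29 epithelial genes 8 rose (5 without replicate 2 of the 12 h group) and 6 fell, and of 25 mesenchymal and matrix genes 6 rose (3 without replicate 3 of the 3 h group) and 10 fell. Over all genes 22.7% rose and 23.0% fell, and the integrin and epithelial counts were near those shares, as were the mesenchymal rises. THBS1, thrombospondin, had 107, 84.9 and 101 CPM in sheared 12 h libraries, against 310.2, 370.2 and 221 CPM in sheared 3 h libraries, a change of -1.62 ± 0.16 (adjusted p = 5.33e-07). CDH2, N-cadherin, changed by -1.11 ± 0.16 (adjusted p = 1.78e-05). By at least 2-fold 4 mesenchymal and matrix genes rose and 4 fell. The median of that list was 0.02 and its largest rise 2.06. The PC-3 marker VIM, given after its values were seen and scaled by total counts, was higher at 12 h. It had 448, 251 and 168 CPM in sheared 12 h libraries, against 85.2, 86.8 and 52.1 CPM in sheared 3 h libraries. Among 15 genes of the BCL2 family BCL2L2, BIK and BBC3 rose, against 22.7% of all genes, and 6 rose without replicate 1 of the 12 h group. BCL2L11 fell, a call that was lost in 6 other fits. BIK, a BH3-only protein, had 17.7, 25.02 and 17.4 CPM in sheared 12 h libraries, against 4.86, 4.80 and 2.84 CPM in sheared 3 h libraries, a change of 2.27 ± 0.22 (adjusted p = 2e-07).

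Of 54 nuclear-encoded subunits of the respiratory chain 11 rose and 6 fell, with a median of 0.17, and neither count was above the share of all genes (22.7% rose and 23.0% fell). The rises numbered 19 without replicate 1 of the 12 h group, 7 without its replicate 2, and 7 without replicate 2 or 3 of the 3 h group. COX6C, of cytochrome oxidase, had 439.8, 387 and 381 CPM in sheared 12 h libraries, against 255, 243 and 238 CPM in sheared 3 h libraries, a change of 0.71 ± 0.12 (adjusted p = 7.87e-05). NDUFB1, of complex I, had 30.7, 24.2 and 20.5 CPM in sheared 12 h libraries, against 12.5, 12.1 and 12.02 CPM in sheared 3 h libraries, a change of 1.04 ± 0.17 (adjusted p = 5.49e-05). Of 33 mitochondrial ribosomal proteins 18 fell and MRPS10 rose, with MRPL15 at 21.9, 22.2 and 32.8 CPM in sheared 12 h libraries, against 55.97, 58.5 and 47.02 CPM in sheared 3 h libraries, a change of -1.07 ± 0.17 (adjusted p = 3.45e-05). The count of 18 was 11 without replicate 1 or 2 of the 3 h group and 10 with all 18 libraries. Of 31 proteasome subunits 11 fell (7 without replicate 2 of the 3 h group and 7 with upper-quartile factors) and none rose, PSMD12 by 0.78 ± 0.13. Among 27 lysosome and autophagy genes 6 rose and 5 fell, with a median of -0.07, near the shares of all genes, and 3 fell without replicate 1 or 2 of the 3 h group. SQSTM1, the autophagy receptor p62, had 299, 298 and 270.4 CPM in sheared 12 h libraries, against 487, 495 and 597 CPM in sheared 3 h libraries, a change of -0.86 ± 0.13 (adjusted p = 1.71e-05). ULK1, the kinase that starts autophagy, had 125, 139 and 119 CPM in sheared 12 h libraries, against 62.2, 58.2 and 69.99 CPM in sheared 3 h libraries, a change of 1.01 ± 0.12 (adjusted p = 2.93e-06). Among 19 genes that make or desaturate fatty acids SCD5, FADS3, ELOVL6 and ACSS2 rose and ACACA, FASN, FADS2, SREBF1 and ACSL3 fell, with a median of -0.11. Both counts were near the shares of all genes. SCD5, a desaturase, changed by 1.69 ± 0.24 and ACACA, acetyl-CoA carboxylase, by -0.79 ± 0.12.

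The remaining genes of the largest rises belong to no list above. SCNN1G, a subunit of the epithelial sodium channel, had the largest rise among genes with a mean log2 CPM of at least 3, with 98.7, 86.3 and 40.2 CPM in sheared 12 h libraries, against 2.26, 1.85 and 2.23 CPM in sheared 3 h libraries, a change of 5.14 ± 0.34 (adjusted p = 7.78e-07). PDGFA, a growth factor ligand, had 125, 152 and 68.5 CPM in sheared 12 h libraries, against 6.68, 6.69 and 10.03 CPM in sheared 3 h libraries, a change of 3.89 ± 0.31 (adjusted p = 5.53e-06). SLAMF9, a receptor of the SLAM family, had 53.9, 43.2 and 36.04 CPM in sheared 12 h libraries, against 2.82, 2.91 and 3.15 CPM in sheared 3 h libraries, a change of 3.90 ± 0.19 (adjusted p = 2.35e-11). For SCNN1G and PDGFA the third 12 h library was the lowest of its group. MAB21L3, GPR146, PDLIM4 and PRDM1 changed by 3.39 ± 0.25, 3.14 ± 0.22, 3.14 ± 0.17 and 3.11 ± 0.31. DEPP1 changed by 3.84 ± 0.91 (adjusted p = 0.0284), with 429.6, 421 and 154 CPM in sheared 12 h libraries, against 18.99, 6.85 and 44.2 CPM in sheared 3 h libraries. Both groups spread widely for DEPP1, and its adjusted p was 0.0741 without replicate 1 of the 12 h group, 0.0793 without replicate 2 and 0.105 without replicate 1 of the 3 h group. The static course of these genes ran the same way, with log2 fold changes of 5.01 ± 0.16 for SCNN1G, 4.19 ± 0.16 for PDGFA and 3.58 ± 0.18 for SLAMF9.

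Of the largest falls not yet described, CYP1B1, an estrogen-metabolising enzyme induced by the aryl hydrocarbon receptor, had 20.1, 17.8 and 21.4 CPM in sheared 12 h libraries, against 173, 210.3 and 173 CPM in sheared 3 h libraries, a change of -3.23 ± 0.14 (adjusted p = 7.23e-12). NRARP, a feedback inhibitor of Notch, had 8.997, 10.3 and 15.6 CPM in sheared 12 h libraries, against 147, 127 and 163 CPM in sheared 3 h libraries, a change of -3.64 ± 0.19 (adjusted p = 2.54e-10). ADAMTS15, a secreted protease, had 2.81, 3.81 and 8.93 CPM in sheared 12 h libraries, against 51.5, 61.3 and 57.2 CPM in sheared 3 h libraries, a change of -3.44 ± 0.36 (adjusted p = 6.53e-05). PHACTR3, a regulator of protein phosphatase 1, had 2.02, 2.70 and 8.35 CPM in sheared 12 h libraries, against 35.7, 31.8 and 48.1 CPM in sheared 3 h libraries, a change of -3.13 ± 0.55 (adjusted p = 0.00562). For ADAMTS15 and PHACTR3 the third 12 h library was the highest of its group. RN7SL1 and RN7SL2, near-identical signal recognition particle RNAs whose reads cannot be assigned to one copy with certainty, had changes of -3.09 ± 0.73 (adjusted p = 0.0276) and -3.83 ± 0.97 (adjusted p = 0.0349). Their levels in the 3 h libraries ran from 37.5 to 164 CPM for RN7SL1 and from 53.9 to 379 CPM for RN7SL2, lowest in replicate 3. Neither passed the threshold without replicate 1 of either group, with adjusted p-values for RN7SL2 of 0.0992 without that of 12 h and 0.0873 without that of 3 h, nor did they in 3 other such fits, where the adjusted p was 0.0660 to 0.0825 for RN7SL1. MALAT1, a long non-coding RNA of the nucleus, had 39.1, 29.4 and 32.1 CPM in sheared 12 h libraries, against 15.1, 14.3 and 15.1 CPM in sheared 3 h libraries, a change of 1.17 ± 0.15 (adjusted p = 5.33e-06), not called in a fit of all 18 libraries (adjusted p = 0.0642).

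The genes with the clearest difference between the courses, beyond those above, lay on both sides. FAM83A rose more in sheared cells, with 87.8, 98.6 and 89.2 CPM in sheared 12 h libraries, against 22.03, 27.1 and 16.3 CPM in sheared 3 h libraries, and 38.99, 37.4 and 38.4 CPM in static 12 h libraries, against 26.3, 26.8 and 19.3 CPM in static 3 h libraries, a difference of 1.42 ± 0.15 (adjusted p = 1.4e-05). PDE1C, a phosphodiesterase regulated by calmodulin, fell less in sheared cells, at -0.53 ± 0.12 against -1.89 ± 0.11 in static cells, a difference of 1.37 ± 0.15 (adjusted p = 1.73e-05). With all 18 libraries its fall in sheared cells had an adjusted p of 0.0644. MARCHF4, a ubiquitin ligase, and PTX3, a pentraxin of innate immunity, were not called in sheared cells, at 0.26 ± 0.22 and -0.01 ± 0.15, and fell in static cells, at -1.88 ± 0.21 and -1.25 ± 0.10. Their differences were 2.12 ± 0.24 (adjusted p = 2.7e-05) and 1.23 ± 0.15 (adjusted p = 4.36e-05). TCN1, a vitamin B12 carrier, was not called in sheared cells, at -0.24 ± 0.17 (adjusted p = 0.276), with 36.3, 28.3 and 20.4 CPM in sheared 12 h libraries, against 34.6, 32.8 and 32.9 CPM in sheared 3 h libraries, which overlapped. In static cells it rose, with 154, 158 and 114 CPM in static 12 h libraries, against 51.8, 49.2 and 52.9 CPM in static 3 h libraries, and the difference was -1.73 ± 0.14 (adjusted p = 1.16e-06). Without replicate 1 of the 12 h group the adjusted p of TCN1 in sheared cells was 0.0271.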

How the data were processed

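Cytosolic RNA of 18 PC-3 libraries (6 groups of 3) was sequenced, and a table of raw counts per gene was deposited. Per the submitters' processing notes the authors used STAR, DESeq2 and GRCh38.p13; the counter and annotation, and any strand setting, were not given in the sources used here. Of 28395 gene IDs 27745 have a RefSeq symbol (GRCh38.p14) and 650 have none. Columns were tied to samples by the library names in the labels, and no column of another series was found.

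Genes were kept by filterByExpr (minimum count 10, minimum total 15) over the 12 libraries of 12 h and 3 h, which left 15088. Counts were scaled by TMM factors over all 18 libraries and shown as CPM; sums over marker lists use total counts. The sheared comparison used edgeR 4.0.16 (R 4.3.3, limma 3.58.1), quasi-likelihood with robust dispersion, on 6 libraries with 4 residual degrees of freedom. The difference of courses, the shear by time interaction, was fitted on 12 libraries with the 6 pools as a block, again with 4. Benjamini-Hochberg adjustment ran over all 15088 genes. The fits were also run on simulated counts in which few genes changed and pools had no effect. That run checked the code only and cannot speak to data in which many genes change. Where nothing says that replicates are separate cultures, p-values measure only the spread between these samples, which may be technical.

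Equal replicate numbers at 12 h and 3 h do not pair the sheared libraries: deviations from the group means correlated at -0.181 to -0.0456. Within a time the numbers mark shared pools, per the labels, which is why pools are a block in the difference of courses. There sheared and static libraries of the same number correlated at 0.191 to 0.530 at 3 h. At 12 h they correlated at 0.453, -0.331 and 0.261 for replicates 1, 2 and 3, and sheared replicate 2 correlated more with static replicate 3 (0.454). The lists and their members were chosen with earlier results of these data known. Genes named were the 12 largest called rises and falls without overlap between the times and with a mean log2 CPM no lower than 3, the 6 smallest p-values in each direction for the difference of courses, up to 4 members per list by smallest p, and a fixed set that includes FOS, EGR1, VEGFA and CDK1. Members outside this rule are named only to spell out small counts, after their values were seen. Promoter sequences are RefSeq's, matched by symbol. Alternatives were other scaling factors, no filter, DESeq2 1.42.0, a replicate block or none, a fit of all 18 libraries, and leaving out each library.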

Additional observations from a re-analysis of the deposited data

Results flagged for a closer look

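The genes below had an effect of time that differed between sheared and static cells by the interaction test, and each value is the log2 fold change of the sheared course minus that of the static course with its standard error. The batch date is shared by both treatments of a time.

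Among early response and signalling genes the difference was -3.22 ± 0.23 for FOSB, -2.59 ± 0.21 for NR4A1, -3.45 ± 0.20 for NR4A2 and -4.01 ± 0.49 for NR4A3. It was -2.01 ± 0.32 for FOS, -1.94 ± 0.20 for ATF3, -1.41 ± 0.15 for KLF4, -1.84 ± 0.16 for JUN and -1.57 ± 0.15 for JUND. CD55 differed by -1.47 ± 0.13, PER2 by -2.67 ± 0.22, ETS2 by -1.61 ± 0.13 and IL11 by -2.99 ± 0.26. TCN1, a vitamin B12 carrier outside these classes, differed by -1.73 ± 0.14. It rose in static cells and was not called in sheared cells. In these 14 genes the sheared course was the more negative.

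Mitotic genes lay on the other side, at 1.22 ± 0.13 for CDCA8, 1.58 ± 0.17 for CCNF, 1.07 ± 0.14 for CENPA, 0.95 ± 0.13 for KIF20A, 1.05 ± 0.13 for AURKA, 1.10 ± 0.14 for KIF2C, 0.75 ± 0.12 for CDK1 and 0.61 ± 0.12 for CCNB1. FAM83A, PDE1C, MARCHF4 and PTX3 were also more positive in sheared cells, by 1.42 ± 0.15, 1.37 ± 0.15, 2.12 ± 0.24 and 1.23 ± 0.15.

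Interferon-stimulated genes fell further in sheared cells, with -0.92 ± 0.13 for MX1, -1.23 ± 0.17 for OAS2 and -1.20 ± 0.19 for CMPK2. The sterol genes differed by -0.87 ± 0.12 for SQLE, -1.22 ± 0.15 for HMGCS1 and -0.92 ± 0.13 for CYP51A1. STC2 and EGLN1 differed by -0.80 ± 0.13 and -0.47 ± 0.12, and both calls were lost without the pool block and with all 18 libraries. With all 18 libraries the calls of FOSB, NR4A1, FOS, ATF3, CDK1 and CCNB1 were lost too. Adjusted p-values in edgeR ran from 1.9e-08 for NR4A2 to 0.0282 for EGLN1.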

How the results depend on the processing

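The counts of the sheared comparison stayed within 1.5 times of 3429 higher and 3477 lower genes under every alternative run: leaving out 1 library gave 2667 to 3534 higher and 2787 to 3682 lower, and a replicate block 3328 and 3393. The balance of directions depended on scaling: upper-quartile factors gave 4055 higher and 2925 lower (58.1% higher) and total counts 2753 and 4014 (40.7% higher), against 49.7% as reported. Of 140 named genes 132 were called in this comparison. Of their 1820 values 1777 stayed called or stayed uncalled, 36 lost the call and 7 gained it. No value called in either fit reversed its sign. The replicate block ended the calls of HILPDA (adjusted p = 0.0755), DEPP1 (0.177), RN7SL1 (0.174) and RN7SL2 (0.183), each of which has replicates that spread widely.

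The difference of courses was less stable in its counts. Against 360 more positive and 461 more negative genes, the fit without the replicate block gave 148 and 199, all 18 libraries 78 and 136, no filter on low counts 613 and 668, RLE factors 349 and 466, and DESeq2 438 and 488. Leaving out 1 replicate pool at a time (leave-one-out) gave 128 to 888 more positive genes and 201 to 895 more negative ones. The fit without 12 h replicate 1 gave 166 and 236, without 12 h replicate 3 888 and 895, and without 3 h replicates 1, 2 and 3 in turn 146, 128 and 188 more positive and 236, 201 and 255 more negative genes. The cause was not tested. For its named genes and lists the alternatives were chosen after seeing the data. Of the 140 named genes only 64 were called in the difference of courses, so many values had no call to lose. Of 1539 values 1406 stayed called or stayed uncalled, 94 lost the call and 39 gained it. No value called in either fit reversed its sign. With 3 libraries per group small changes can go uncalled.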
